A study of Mus musculus with 18 samples.

Results

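The step from day 7 to day 11 of factor induction was described from 4 of the 18 arrays of a mouse reprogramming course, the 2 arrays of cells on day 11 and the 2 arrays of cells on day 7. All genes were compared, after probe sets named by RefSeq accession had been assigned to gene symbols and the probe set with the highest mean had been taken for each gene, which left 20233 genes. In secondary reprogramming the fibroblasts hold inducible transgenes for Oct4, Sox2, Klf4 and c-Myc, which doxycycline switches on. Day 11 and day 7 cells had the same origin and treatment apart from time. They were mouse embryonic fibroblasts at passage 4, taken from E13.5 embryos made entirely of iPS cells by tetraploid complementation, with the genotype Oct4-GFP/Rosa26-M2rtTA, grown on gelatin in embryonic stem cell medium with LIF, 1 µg/ml of doxycycline and 50 µg/ml of vitamin C. The Oct4-GFP allele marks activity of the Oct4 locus and Rosa26-M2rtTA supplies the doxycycline-dependent transactivator from a broadly active locus. The other arrays, used here for the spread and for the course, were of uninduced fibroblasts (day 0), of cells on days 1, 3, 5 and 15 of the same treatment, of cells on day 18 that had been without doxycycline and vitamin C for 3 days, and of an established iPSC line, with 2 arrays each. The labels do not say that the arrays of a day came from separate cultures, so the p-values reflect nothing but the spread among these arrays, which may be technical.

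Fibroblasts that are reprogrammed lose their mesenchymal character and gain an epithelial one before they acquire a stable pluripotency network. Epithelial cells hold together through E-cadherin, claudins, occludin and desmosomes, while mesenchymal cells make a fibrillar matrix and contractile fibres and express Snail, Zeb and Twist factors that repress epithelial genes. The pluripotency network is built around Oct4, Sox2 and Nanog, and in the naive state includes Esrrb, Nr5a2 and Tfcp2l1.

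Values are log2 levels, on which a difference of 1 is 2-fold, and levels of different genes are not comparable. A gene was called where limma gave a Benjamini-Hochberg adjusted p under 0.05 over all 20233 genes and the log2 difference, day 11 minus day 7, was at least 1 in size. On day 11, 370 genes were higher (1.83% of all genes) and 248 were lower (1.23%), together 3.05%. With the adjusted p alone, 25.8% of genes passed, and the median difference of all genes was -0.015. Of all 20233 differences, 9477 lay above 0 and 10756 below. Of the genes called higher, 64 rose by at least 2 and 11 by at least 3 on the log2 scale, and of those called lower 21 fell by at least 2 and 1 by at least 3. Levels at or below 5.32, the 95th percentile of 1075 olfactory receptor genes, were taken as background. A log2 difference whose lower level lies there is a lower bound, which was so for 64 of the genes called higher and 51 of those called lower. The arrays of a group correlated at 0.997 to 0.998 over genes, except those of day 18 at 0.993, and leaving day 18 out of the fit kept all 370 and 248 calls. In these bulk cultures, fewer cells of a type and less RNA per cell cannot be told apart.

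**Figure D1:**
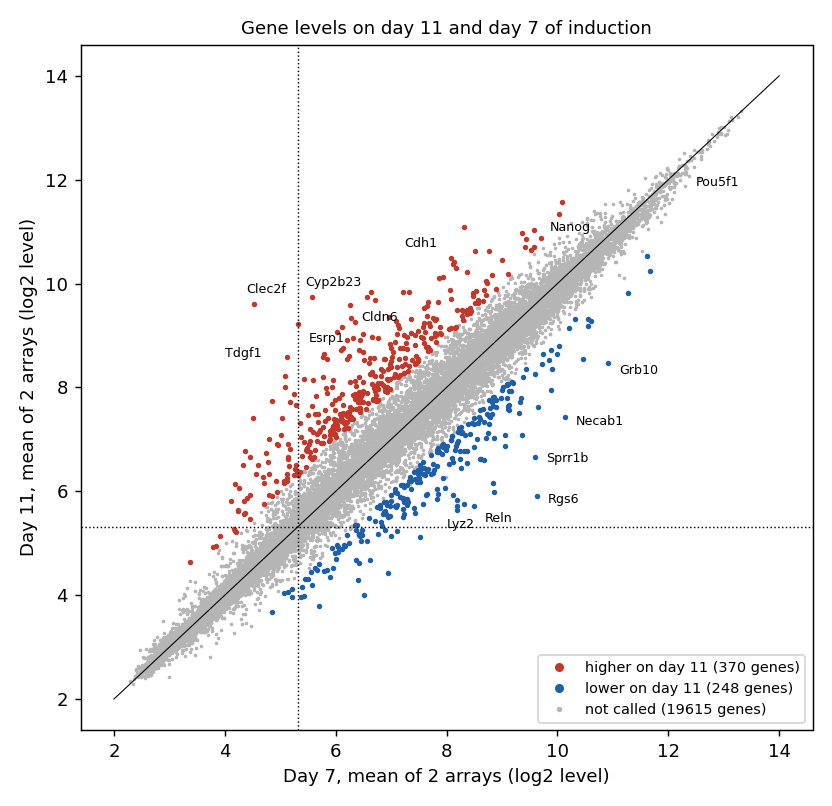
Mean log2 level of each of the 20233 genes on day 11 (vertical axis) and day 7 (horizontal axis), each the mean of 2 arrays, with the line of equality and the background of 5.32 as dotted lines. The 370 genes called higher on day 11 reach from below the background to over 11, and Clec2f lies farthest above the line and Rgs6 farthest below it.

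Genes of epithelial adhesion rose together. Of 30 measured genes of cell junctions and their proteases, 20 were higher on day 11 and 0 were lower, with a median log2 difference of 1.44, and 29 of the 30 differences were above 0. Cdh1, which encodes E-cadherin, stood at 10.52 and 10.48 on day 11, against 8.07 and 8.11 on day 7, a rise of 2.41 ± 0.08 (SE, limma adjusted p = 5.14e-10). Epcam, an epithelial adhesion molecule, had 9.90 and 9.76 on day 11 and 7.33 and 7.32 on day 7, a rise of 2.50 ± 0.16 (limma adjusted p = 1.01e-07). Both genes were already above background on day 7, and both day 11 arrays lay above both day 7 arrays, as for 28.1% of all genes.

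The tight junction seals the space between epithelial cells, and the genes of several of its membrane proteins rose. Cldn6, a claudin of early embryonic epithelia, was at 9.49 and 9.70 on day 11, against 6.18 and 6.34 on day 7, a rise of 3.33 ± 0.14 (limma adjusted p = 2.73e-09). Occludin, encoded by Ocln, was at 8.0 and 8.0 on day 11 and at 5.05 and 5.13 on day 7, under the background, so that its rise of 2.91 ± 0.15 is a lower bound. Cldn4 rose by 2.62 ± 0.13, Cldn7 by 1.75 ± 0.18, the tricellular junction gene Marveld2 by at least 1.49 ± 0.12 and F11r, which encodes a junctional adhesion molecule, by 1.91 ± 0.12. Among cytoplasmic and polarity partners, Patj rose by 1.61 and Crb3 by 1.34. Not every claudin took part: Cldn3 differed by 0.11 and Cldn8 by -0.08, neither called. In desmosomes, the cadherin gene Dsg2 rose by 2.70 ± 0.18, Pkp2 by 1.39 and Jup by 1.30, whereas Dsp, with 10.70 and 10.72 on day 11 and 10.40 and 10.42 on day 7, was high on both days and differed by 0.30. The membrane protease gene St14 (matriptase) rose by 2.25 ± 0.12, its partner protease gene Prss8 by 1.33, and the genes of their inhibitors, Spint1 and Spint2, by 2.18 and 1.84.

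Regulators of epithelial identity made up the second group. Of 16 measured, 8 were higher on day 11 and 0 lower, with a median difference of 0.99. Esrp1, an RNA-binding protein that sets epithelial splicing, showed 9.17 and 9.26 on day 11, against 5.40 and 5.23 on day 7, a rise of 3.90 ± 0.11 (limma adjusted p = 1.32e-10), a lower bound since the day 7 mean was 5.31. Its paralogue Esrp2 was at 8.30 and 8.36 on day 11 and at 8.22 and 8.17 on day 7, so that the levels of Esrp2 lay close together where those of Esrp1 lay far apart. Grhl2, a Grainyhead factor that activates Cdh1 and claudin genes, was at 6.73 and 7.09 on day 11, against 4.92 and 4.94 on day 7. This difference of 1.98 ± 0.10 is again a lower bound, while its relatives Grhl3 and Grhl1 differed by 0.93 and 0.51 and were not called. Among epithelial ETS factors, Ehf rose by 2.62 ± 0.13, Elf3 by 2.17 ± 0.14 and Elf5 by 1.05 ± 0.14, the first and the last from under the background, and the call of Elf5 was lost without array 1 of day 7 (0.92) or with arrays centred on their medians (0.99). Tfap2c rose by 1.32 ± 0.08 and Rab25, a GTPase of apical recycling, by 3.06 ± 0.12. Trp63, Tfap2a, Ovol1 and Ovol2 differed by 0.12, 0.19, 0.33 and 0.20 and were not called.

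Promoter windows of 4 of these genes are shown because the genes rose together and because a motif for repressors of epithelial genes can be read in them. Each runs from 250 bases before to 50 after the start of transcription in RefSeq's GRCm38.p6, in the direction of the gene, with capitals for the E-box CAGGTG or its reverse complement CACCTG, the letters that Snail and Zeb proteins bind. The windows are Cldn6 at chr17:23679115-23679414 on the plus strand, Epcam at chr17:87635729-87636028 on the plus strand, Cldn4 at chr5:134946885-134947184 on the minus strand and Rab25 at chr3:88548230-88548529 on the minus strand.
Cldn6: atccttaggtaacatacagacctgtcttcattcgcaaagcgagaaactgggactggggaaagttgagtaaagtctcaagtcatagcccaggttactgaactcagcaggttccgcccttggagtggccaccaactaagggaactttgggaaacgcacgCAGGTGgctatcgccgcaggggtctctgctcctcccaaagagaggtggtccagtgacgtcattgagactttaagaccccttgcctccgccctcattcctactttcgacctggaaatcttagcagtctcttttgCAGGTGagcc
Epcam: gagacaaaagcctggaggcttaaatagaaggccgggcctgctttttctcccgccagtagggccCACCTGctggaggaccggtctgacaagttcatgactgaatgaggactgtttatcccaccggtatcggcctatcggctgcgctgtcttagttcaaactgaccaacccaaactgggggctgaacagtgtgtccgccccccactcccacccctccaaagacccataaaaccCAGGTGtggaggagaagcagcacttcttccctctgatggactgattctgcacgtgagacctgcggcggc
Cldn4: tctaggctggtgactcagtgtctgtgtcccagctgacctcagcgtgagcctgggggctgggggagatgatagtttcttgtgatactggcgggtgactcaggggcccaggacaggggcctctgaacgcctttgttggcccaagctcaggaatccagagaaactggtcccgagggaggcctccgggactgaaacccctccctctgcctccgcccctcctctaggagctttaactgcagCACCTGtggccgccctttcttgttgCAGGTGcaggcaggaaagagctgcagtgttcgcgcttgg
Rab25: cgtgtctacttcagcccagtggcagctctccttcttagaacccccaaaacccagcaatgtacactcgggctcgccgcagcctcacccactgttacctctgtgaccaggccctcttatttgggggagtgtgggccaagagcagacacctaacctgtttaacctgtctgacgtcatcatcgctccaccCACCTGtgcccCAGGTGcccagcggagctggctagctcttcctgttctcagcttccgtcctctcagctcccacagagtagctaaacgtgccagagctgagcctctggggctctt
Each of the 4 windows held 2 E-boxes, but they were shown for this motif, so that their count says nothing about other genes. Of the 28 genes of both epithelial lists called higher, 16 had a window in the table, and in 14 of them (87.5%) at least 1 window held the E-box on either strand. The windows of Jup and Spint1 held none. The share among members of these lists that were not called was not counted. The same letters stood in windows of 96 of 260 genes higher on day 11 (36.9%), of 35 of 174 genes lower on day 11 (20.1%) and of 3486 of all 15703 measured genes with a window (22.2%). The Grainyhead core AACNNGTT, which is its own reverse complement in form, was in 2 of the 16 (12.5%) and in 4.49% of all genes with a window. The octamer ATGCAAAT, a motif of Oct factors, was also in 2 of the 16 and in 1.96% of all. None of the 3 motifs contains another. These shares describe letters in windows, and genes can have several windows.

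The genes of Snail and Zeb proteins were examined beside their motif. Snai2 was at 6.39 and 6.34 on day 11 and at 7.49 and 7.35 on day 7, a fall of 1.05 ± 0.20 whose call was lost without array 1 of day 7 (-0.98). Zeb1 had 7.38 and 7.65 on day 11, against 8.53 and 8.42 on day 7, a difference of -0.96 ± 0.12 under the fold limit (limma adjusted p = 5.62e-05). Zeb2 differed by -0.93 ± 0.43 (limma adjusted p = 0.136), Snai1 by 0.31 and Twist1 by -0.03. Of the microRNA genes of the miR-200 family, which act against Zeb, Mir141, Mir200b, Mir200c and Mir429 were under the background on both days, so that no change of theirs could be read, and Mir200a, just above it, differed by -0.05. Of 326 microRNA genes measured, those called were Mir30e and Mir196a-1, picked out after their values were seen, with mature sequences from RefSeq (GRCm38.p6) shown with the seed, bases 2 to 8, in capitals. They lie at chr4:120772660-120772681 on the minus strand and at chr11:96265187-96265208 on the plus strand.
miR-30e-5p: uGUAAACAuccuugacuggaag
miR-196a-5p: uAGGUAGUuucauguuguuggg
Mir30e rose, with 7.12 and 7.27 on day 11 and 6.09 and 6.0 on day 7. Mir196a-1, which lies in the HoxB cluster, fell to 4.78 and 5.04 on day 11, under the background, against 6.0 and 5.88 on day 7, and its call was lost without array 1 of day 11 (-0.91) or array 1 of day 7 (-0.98). The 2 seeds differ.

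Keratins are the intermediate filament proteins of epithelia, and some of their genes changed. Of 6 keratins of simple epithelia, 3 were higher and 0 lower. Krt8 was at 10.97 and 11.10 on day 11, against 9.64 and 9.52 on day 7, a rise of 1.45 ± 0.14 (limma adjusted p = 4.21e-06). Its partner Krt18 rose by 1.27 ± 0.15 and Krt19 by 1.08 ± 0.18, the call of Krt19 being lost without array 2 of day 7 (0.89). Krt7, Krt23 and Krt20 differed by 0.79, 0.03 and -0.23 and were not called. Of 11 basal and stratified keratins, Krt17, a keratin of wounded and appendage epithelium, rose by 1.86 ± 0.15 and Krt16 fell by 1.44 ± 0.18. The other 9 were not called, among them Krt1 (0.94), Krt6a (0.35) and the basal keratins Krt14 (0.18) and Krt5 (0.09).

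Genes of the cornified envelope, the cross-linked shell of dead epidermal cells, mostly went the other way. Of 28 measured, 7 were lower and 3 higher on day 11, and 24 differences lay below 0, with a median of -0.48. Sprr1b, a small proline-rich envelope protein, was at 6.58 and 6.75 on day 11, against 9.68 and 9.52 on day 7, a fall of 2.94 ± 0.18 (limma adjusted p = 5.3e-08). Crct1 fell by 2.28 ± 0.14, Lce1a1 by 2.12 ± 0.08, Cnfn by 1.97 ± 0.15, Sprr1a by 1.92 ± 0.15, Ivl (involucrin) by 1.52 ± 0.14 and Sbsn by 1.19 ± 0.15. For Lce1a1 and Ivl the day 11 level was under the background. The 3 that rose were the transglutaminase genes Tgm1 and Tgm3, whose enzymes cross-link the envelope, by 1.44 ± 0.16 and 1.40 ± 0.13, and Krtdap by 1.17 ± 0.12.

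**Figure D2:**
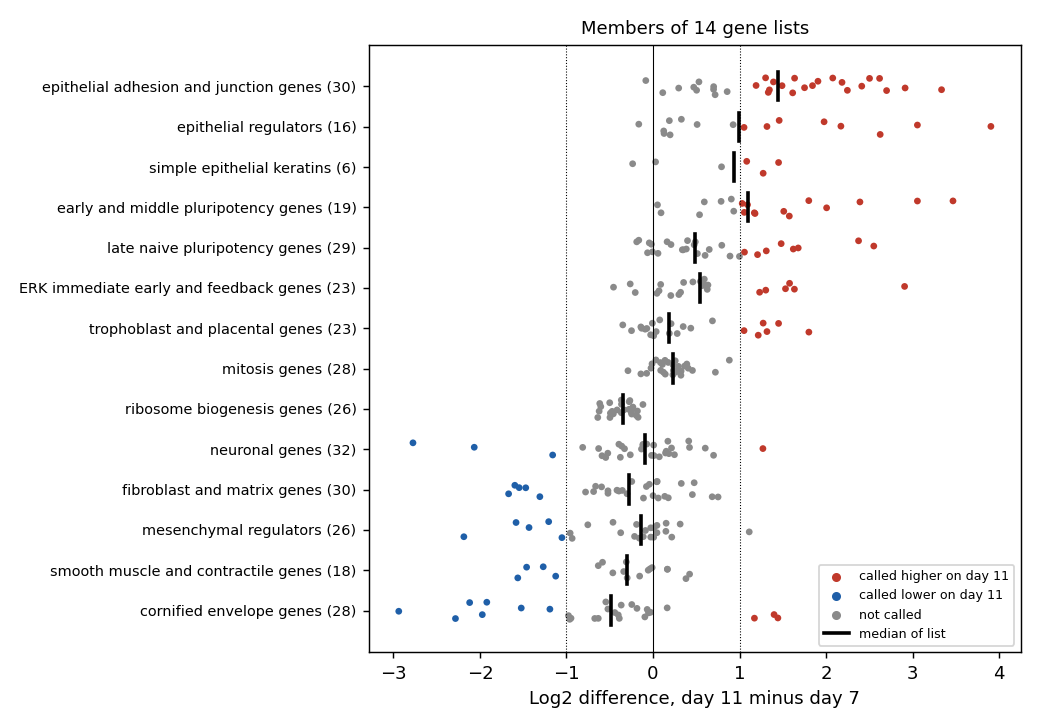
Log2 difference, day 11 minus day 7, of each measured member of 14 gene lists (number of members in brackets), with called genes in colour, the median of each list as a bar and the fold limit dotted. In both epithelial lists all called members lie to the right, and in the fibroblast, mesenchymal regulator and smooth muscle lists all called members lie to the left.

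Many pluripotency genes rose, while the genes of the 4 induced factors were not called. Pou5f1 (the Oct4 gene), Klf4 and Myc differed by -0.09, -0.25 and -0.26, and Sox2 was at 8.85 and 8.54 on day 11, against 9.44 and 9.38 on day 7, a difference of -0.72 ± 0.12. Transcripts of the induced copies and of the endogenous genes were not separated in these values. Of 19 genes of early and middle pluripotency, 12 were higher and 0 lower, with a median of 1.09.

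Tdgf1, the Nodal co-receptor also known as Cripto, was at 8.53 and 8.64 on day 11 and at 5.12 and 5.12 on day 7, so that its rise of 3.47 ± 0.22 (limma adjusted p = 8.51e-08) is a lower bound. Utf1, a chromatin protein of pluripotent cells, had 9.28 and 9.05 on day 11, against 5.92 and 6.31 on day 7, a rise of 3.05 ± 0.16. Sall4, a zinc finger factor of the core network, was at 9.25 and 9.45 on day 11 and at 6.99 and 6.93 on day 7. These 3 genes were clear of the day 7 arrays by over 2 log2 units. Nanog was at 10.89 and 10.85 on day 11, against 9.73 and 9.66 on day 7, a rise of 1.17 ± 0.16. Nr0b1 rose by 1.80 ± 0.13, Fbxo15 by 2.01 ± 0.14 as a lower bound, Gdf3 by 1.58 ± 0.15, L1td1 by 1.05 and Trim71 by 1.03, the call of Trim71 being lost without array 2 of day 11 (0.94) and those of Trim71 and L1td1 with arrays centred on their medians (0.97 and 0.997). Lin28a differed by 0.09 and was not called.

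Late naive genes were split. Of 29, 8 were higher and 0 lower, with a median of 0.49. The nuclear receptor gene Nr5a2 was at 7.50 and 7.84 on day 11, against 5.24 and 5.35 on day 7, a lower bound of 2.38 ± 0.15. Dppa5a, an RNA-binding protein of naive cells, rose by at least 2.55 ± 0.12, Esrrb by 1.68 ± 0.11, Zscan10 by 1.62 ± 0.13, Sox15 by 1.31 ± 0.12 and Eras, a Ras-like gene of embryonic stem cells, by at least 1.21 ± 0.12. The rise of Tcl1 (1.06 ± 0.16) ended at 5.14 and 5.36 on day 11, at the background, and its call was lost without array 2 of day 11 (0.95) or array 1 of day 7 (0.83), or with arrays centred on their medians (0.999). Zfp42 (Rex1), with 4.17 and 4.32 on day 11 and 3.65 and 4.04 on day 7, stayed under the background. Dppa3 and Dnmt3l differed by 0.38 and -0.01, and of the pair Tbx3 and Klf5 neither was called. Of 17 formative and primed genes, Zic2 (1.40 ± 0.08) and Cldn6 were called, and the primed markers Otx2 and Fgf5 differed by 0.46 and -0.32.

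Some signalling genes of the Nodal and FGF lists were called, beside 3.05% of all genes. Of 19 Nodal and activin pathway genes, 3 were higher and 1 lower, with a median of 0.08. The ligand genes Nodal and Gdf3 and the co-receptor gene Tdgf1 rose, and Inhba, the activin subunit, fell by 1.47 ± 0.17. Nodal was at 7.02 and 7.15 on day 11, against 5.68 and 6.12 on day 7, and its call was lost without array 1 of day 7 (0.96). Of 16 FGF ligand, carrier and receptor genes, 2 were higher and 0 lower, with a median of -0.05. The ligand gene Fgf4 rose by 1.51 ± 0.12, to 8.28 and 8.16 on day 11, against 6.61 and 6.81 on day 7. Fgfbp1, a carrier that releases FGF from matrix, rose by 2.97 ± 0.13, and none of the 4 receptor genes was called. Immediate early and feedback genes of the ERK cascade had 6 of 23 higher and 0 lower, with a median of 0.55.

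Etv5, an ETS factor induced by FGF and ERK, showed 9.24 and 9.29 on day 11, against 6.33 and 6.38 on day 7, a rise of 2.91 ± 0.09 (limma adjusted p = 2.42e-10). Etv4 rose by 1.53 ± 0.10, Egr2 by 1.63 ± 0.26, and the feedback inhibitor genes Dusp6, Spry4 and Dusp5 by 1.58 ± 0.14, 1.30 ± 0.20 and 1.23 ± 0.09. The receptor tyrosine kinase genes Erbb3 and Egfr, picked out after their values were seen, rose by 2.32 ± 0.12 and 1.0 ± 0.07, the call of Egfr being lost without array 2 of day 11 (0.95), without array 2 of day 7 (0.96) and under both other scalings (0.94 and 0.995). Egr1 and Fos differed by 0.60 and 0.57 and Spry2 by 0.30, under the fold limit.

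Of 23 trophoblast and placental genes, 6 were higher and 0 lower: Tead4 (1.80 ± 0.10), Krt8, Tfap2c, Krt18, Gata2 (1.22 ± 0.09) and Elf5, of which several are shared with other epithelia. The trophoblast factors Cdx2, Eomes and Hand1 differed by -0.25, -0.09 and 0.04. Primitive endoderm genes had 0 of 18 called in either direction, beside 3.05% of all genes. Of 30 germline and meiosis genes, 3 were higher and 1 lower, with a median of 0.03, and 21 were under the background on both days. Tdrd12 and Piwil2, both of the piRNA pathway, rose by at least 1.81 ± 0.13 and by 1.56 ± 0.13. Prdm1 rose by 1.05 ± 0.08, with a call lost without array 2 of day 7 or with arrays centred on their medians (0.99 in both). Kit, the stem cell factor receptor, fell by 1.07 ± 0.08. Among 18 DNA methylation genes, Tet1, which oxidises methylcytosine, rose by 1.07 ± 0.08, to 9.10 and 9.20 on day 11, against 8.11 and 8.05 on day 7. Apobec1 and Gadd45a also passed, at 1.02 and 1.05, with calls lost without array 1 of day 7 for Apobec1 (0.95) and without array 2 of either day for Gadd45a (0.93 each). Both calls were also lost with quantile normalization applied again (0.97 for Apobec1 and 0.99 for Gadd45a) and with arrays centred on their medians (0.96 and 0.99). The methyltransferase genes Dnmt1, Dnmt3a and Dnmt3b were not called.

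In metabolism, single genes passed the fold limit. Tdh, the threonine dehydrogenase of mouse embryonic stem cells, was at 9.20 and 9.19 on day 11, against 7.11 and 7.14 on day 7, a rise of 2.07 ± 0.26. The glucose transporter gene Slc2a3 rose by 1.48 ± 0.09, Aldoc by 1.73 ± 0.16, and the amino acid transporter genes Slc7a3 and Slc7a7 by 1.60 ± 0.08 and 1.26 ± 0.09. Of 25 respiratory chain subunit genes and 20 cholesterol synthesis genes, 0 were called in either list, beside 3.05% of all genes. Cholesterol synthesis genes had 19 of 20 differences above 0, a count that both other scalings left as it was, with a median of 0.26. By the adjusted p alone, 10 of these 20 were higher and 0 lower, against 12.8% and 13.0% of all genes. Respiratory chain genes had 23 of 25 differences below 0 (19 and 24 under the other scalings), with a median of -0.12. Of all 20233 genes, 10756 were below 0 (10787 and 13056 under the other scalings). By the adjusted p alone 7 respiratory chain genes were lower and 0 higher.

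The gene with the largest rise, Clec2f, belongs to a family of C-type lectin-like ligands of natural killer receptors. It was at 9.61 and 9.61 on day 11, against 4.38 and 4.66 on day 7, so that 5.09 ± 0.25 (limma adjusted p = 7.76e-09) is a lower bound. Its neighbours on chromosome 6, Clec2g and Clec2i, rose by 2.82 ± 0.18 and at least 2.91 ± 0.16, and the 3 stood next to each other in the order of measured genes. Cyp2b23, a cytochrome P450, was at 9.71 and 9.77 on day 11 and at 5.77 and 5.38 on day 7. Other large rises were those of Enpp3 (3.20), the adhesion genes Mpzl2 (3.18) and Ceacam2 (at least 3.14), the calcium pump gene Atp2a3 (3.05) and the laminin gene Lama5 (2.25), a basement membrane chain chosen after its value was seen.

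**Figure D3:**
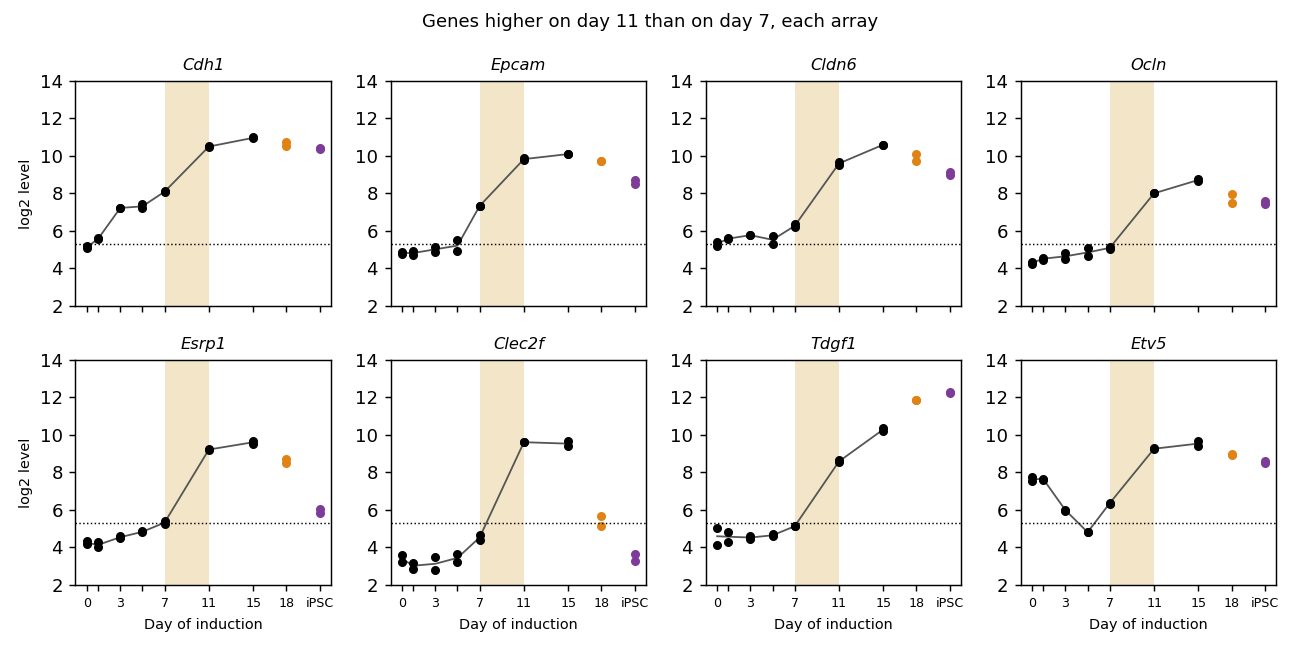
Log2 level on each array of 8 genes called higher on day 11 than on day 7, by day of induction, with day 18 and iPSC arrays in their own colours, the interval of days 7 to 11 shaded, the line through the means of days 0 to 15 and the background of 5.32 dotted. The means of Ocln, Esrp1, Clec2f and Tdgf1 lie under the background through day 7, and Clec2f and Esrp1 are lower in iPSC than on day 15.

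Falls were led by genes that the earlier days had brought up. Rgs6, a regulator of G protein signalling, was at 5.97 and 5.85 on day 11, against 9.63 and 9.63 on day 7, a fall of 3.72 ± 0.07 (limma adjusted p = 3.94e-12). Its mean was 4.85 on day 0, 7.58 on day 3 and 9.71 on day 5. Reln, the extracellular guidance protein reelin, had 5.64 and 5.81 on day 11 and 8.53 and 8.46 on day 7, after 9.68 on day 5.

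The transcription factor gene Tfap2d was at 5.65 and 5.63 on day 11 and at 8.26 and 8.12 on day 7, with means under the background on days 0, 1 and 3. Necab1, a neuronal calcium-binding protein, fell by 2.70 ± 0.13 and Vstm2a by 2.86 ± 0.11. In the neuronal list, 3 of 32 genes were lower, namely Reln, the adhesion gene Nrcam (-2.06 ± 0.30) and Pax6 (-1.16 ± 0.13), and 1 was higher, the intermediate filament gene Nes (1.27 ± 0.13). The list median was -0.09, and the neuronal markers Tubb3, Snap25 and Syt1 differed by -0.81, 0.14 and -0.39 without a call. Further developmental regulators, chosen after their values were seen, were lower, namely Pou3f4 (-1.93 ± 0.16), Alx1 (-1.83 ± 0.13), Isl1 (-1.38 ± 0.11), Sox21 (-1.22 ± 0.11) and Emx2 (-1.18 ± 0.13), the last with a day 11 level under the background.

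Fibroblast genes fell in part. Of 30 fibroblast and matrix genes, 5 were lower and 0 higher, with a median of -0.27. The collagen cross-linking enzyme gene Lox was at 7.70 and 7.75 on day 11, against 9.37 and 9.28 on day 7, and Loxl2 fell by 1.55 ± 0.12. Postn (periostin) fell by 1.67 ± 0.20, Thbs2 by 1.31 ± 0.24 and Dcn (decorin) by 1.47 ± 0.51, whose call, at a limma adjusted p of 0.0491, was lost when any 1 of the 4 arrays was left out (adjusted p of 0.125 to 0.175), with quantile normalization applied again (0.0634) and with an intensity trend and robust variance (0.111). Col1a1 differed by -0.35, Col1a2 by 0.05 and Fn1 by 0.14, and all 5 fibroblast markers stayed above background on both days.

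Contractile genes had 4 of 18 lower, with the smooth muscle actin gene Acta2 at 9.81 and 9.81 on day 11 and at 11.26 and 11.28 on day 7. Myl9 fell by 1.56 ± 0.25, Tagln by 1.27 ± 0.26 and Cnn1 by 1.12 ± 0.14, and the call of Cnn1 was lost without array 1 of day 11 (-0.96) or array 2 of day 7 (-0.99). Of 26 mesenchymal regulators, 5 were lower: Meox2 (-2.19 ± 0.35), the cadherin gene Cdh11 (-1.58 ± 0.23), Osr1 (-1.43 ± 0.13), Twist2 (-1.21 ± 0.25) and Snai2. Adamts5 and Timp3 fell by 1.81 ± 0.31 and 1.34 ± 0.19 among 18 matrix proteases and their inhibitors.

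**Figure D4:**
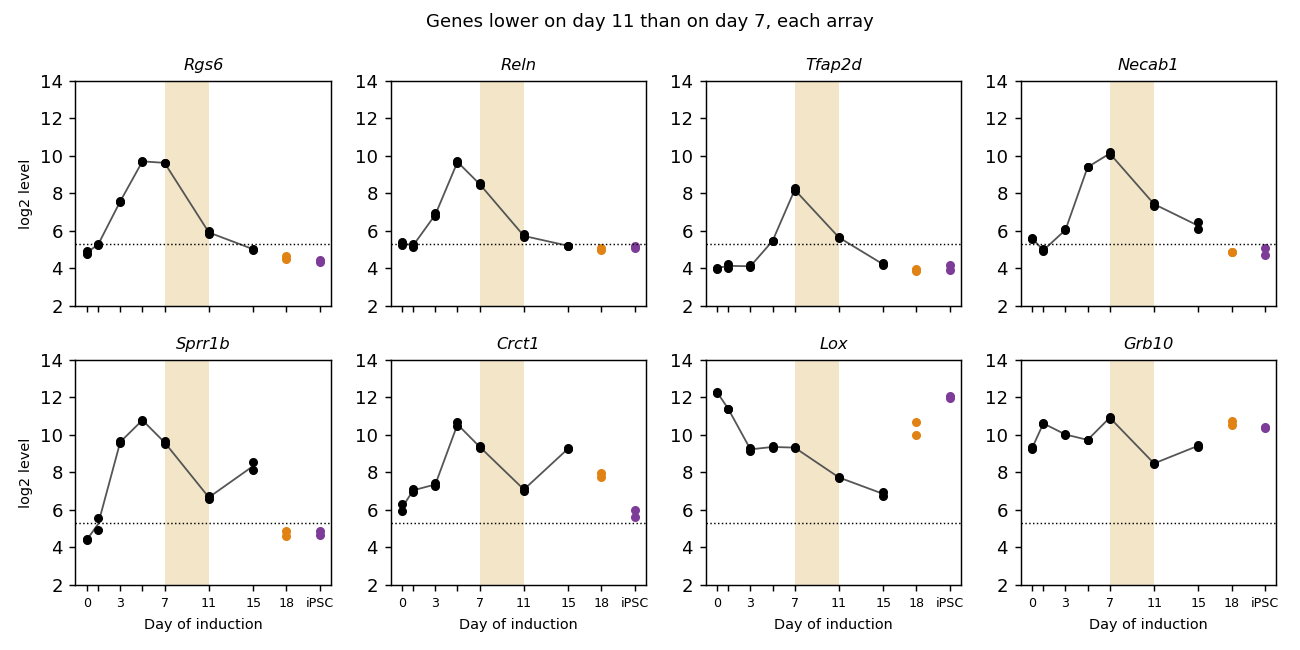
Log2 level on each array of 8 genes called lower on day 11 than on day 7, by day of induction, drawn as for the genes that were higher. Rgs6, Reln, Tfap2d and Necab1 are high on day 7 and lower after it, Sprr1b and Crct1 are higher again on day 15, and Lox is high on day 0 and in iPSC.

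The HoxC cluster on chromosome 15, examined after its values were seen, held runs of 3 and 4 neighbouring genes called lower, and 7 of its 9 measured genes were lower. Hox genes encode the homeodomain factors that set position along the body axis. Hoxc8 was at 6.13 and 6.37 on day 11, against 7.96 and 7.91 on day 7, a fall of 1.69 ± 0.12 (limma adjusted p = 2.48e-07). Hoxc12, Hoxc5, Hoxc6, Hoxc10, Hoxc11 and Hoxc9 fell by 1.47, 1.41, 1.34, 1.29, 1.22 and 1.08, and Hoxc13 and Hoxc4 differed by -0.88 and -0.47. On day 11 Hoxc11 and Hoxc13 were under the background, with means of 4.94 and 4.70, so that their falls are lower bounds. The median of the 9 was -1.29, against 0.00 for 11 HoxA genes, -0.46 for 10 HoxB genes and -0.32 for 9 HoxD genes. In those clusters 1 gene was called, Hoxb9, which fell by 1.16 ± 0.21. Without array 2 of day 11, 6 of the 9 HoxC genes were called, Hoxc9 being at -0.93, and Hoxb9 was at -0.997 and not called. From day 11 to day 15 the median difference of the 9 HoxC genes was 0.57. For 8 of the 9 this change was called more positive than that of days 7 to 11, a comparison that the fall itself enters. Hoxc12 and Hoxc10 rose by 0.85 and 0.81 (limma adjusted p = 0.00171 and 0.000101), under the fold limit. The smallest difference was that of Hoxc8, with a mean of 6.53 on day 15, against 6.25 on day 11. It was not called (0.28 ± 0.12, limma adjusted p = 0.141).

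**Figure D5:**
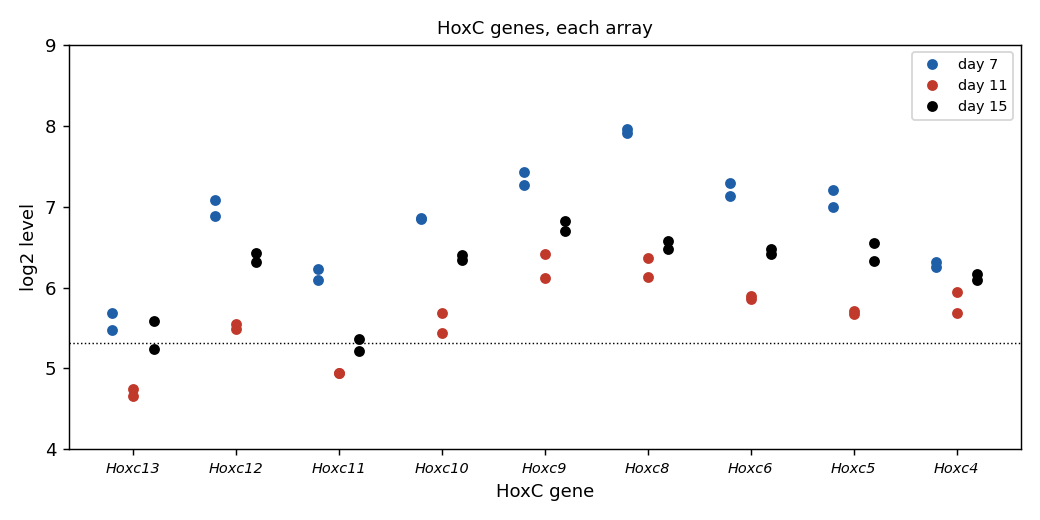
Log2 level of the 9 HoxC genes on each array of days 7, 11 and 15, in the order of the genes along the cluster, with the background of 5.32 dotted. Both day 11 arrays of each gene lie below both arrays of day 7, as for 31.9% of all genes.

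Imprinted genes had 2 of 22 lower and 0 higher, beside 1.23% of all genes lower, with a median of 0.04. Grb10, a growth-restraining adaptor of the insulin receptor, was at 8.45 and 8.50 on day 11, against 10.97 and 10.87 on day 7, a fall of 2.44 ± 0.08, and its mean was 9.42 on day 15. Ndn (necdin) fell by 1.62 ± 0.09. Of 28 chemokine and cytokine genes, 2 were lower and 0 higher. The chemokine genes Ccl7 and Ccl2 fell by 1.29 ± 0.22 and 1.23 ± 0.25. The interferon response list had 1 of 28 higher, the RNA sensor gene Ddx58 (1.54 ± 0.10), and 0 lower. Beside 3.05% of all genes called, counts this small describe single genes and not the lists.

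The lysozyme gene Lyz2, a macrophage marker, fell to 5.55 and 5.89 on day 11, against 8.38 and 8.01 on day 7. It was the only 1 of 21 macrophage and blood genes called. Of these 21, 4 were above background on day 11 and 8 on day 7, and the list median was -0.14. The summed linear level of the list, Lyz2 included, was 802 to 832 on day 11 and 1077 to 1135 on day 7. Genes of high level weigh most in such a sum, so the fall of Lyz2 weighs heavily in it. The part of such cells in the falls was not tested. Of the endothelial list, Tek rose by 1.69 ± 0.14, while the defining markers Cdh5, Kdr, Tie1 and Emcn had means under the background on both days. Of 8 Y-linked and X inactivation genes, 2 were higher and 0 lower, and 5 were under the background on both days. The Y-linked gene Ddx3y was at 6.19 and 6.13 on day 11, against 4.67 and 4.74 on day 7. Uty, also Y-linked, was at 6.44 and 6.59 on day 11 and at 5.34 and 5.23 on day 7. The day 7 level was under the background for Ddx3y and at it for Uty. Xist differed by 0.54 (limma adjusted p = 0.0422), under the fold limit. Whether both days drew on the same mix of cells was not tested.

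Cell division genes stayed within the fold limit. None of 28 replication genes and none of 28 mitosis genes was called, with medians of -0.04 and 0.23. Of the mitosis genes, 23 of 28 had differences above 0, and by the adjusted p alone 13 were higher and 1 lower. Also, 0 of 18 p53 targets, 0 of 32 Polycomb and histone modifier genes and 0 of 33 Wnt pathway genes were called. With 3.05% of all genes called, a count of 0 in lists of these sizes says little. By the adjusted p alone, 11 Polycomb and histone modifier genes were higher and 3 lower, against 12.8% and 13.0% of all genes. For p53 targets these counts were 5 and 2, and for Wnt pathway genes 3 and 5. The 26 ribosome biogenesis genes all had differences below 0, between -0.64 and -0.12, of which 20 passed the adjusted p without reaching the fold limit, and all 26 stayed below 0 under both other scalings tried. Among 61 snoRNA genes, examined after their values were seen, 55 lay below 0, 6 were called lower and 0 higher, with a median of -0.37. Snord68 fell to 5.30 and 4.99 on day 11, against 6.89 and 7.09 on day 7. Each of the called snoRNA genes also had a lower mean on day 5 than on days 3 and 7. On days 3, 5, 7 and 11 the means were 6.995, 5.61, 6.99 and 5.14 for Snord68 and 11.77, 10.55, 11.68 and 10.24 for Snord53. The falls were thus measured from a day 7 that stood above day 5, and why these levels moved between days was not tested.

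The pace of change was tested against the equally long intervals before and after, as the difference between 2 changes in limma. For 1045 genes (5.16%) the change from day 7 to day 11 differed from that of days 3 to 7, being more positive for 547 (2.70%) and more negative for 498 (2.46%). In the junction list 17 of 30 genes had the more positive change and 1 the more negative. Clec2f (3.69 ± 0.42), Cyp2b23 (3.49 ± 0.29), Ceacam2 (3.34 ± 0.34), Clec2i (3.26 ± 0.27) and Esrp1 (3.13 ± 0.19) had the largest fitted differences. Their means were under the background on days 3 and 7, for Cyp2b23 on day 3 alone, so that neither the sizes nor the order of these differences are exact. The later change was the more positive by 2.84 ± 0.25 for Cldn6 and by 1.54 ± 0.15 for Cdh1, whereas for Epcam the 2 changes differed by 0.19 ± 0.28, which was not called. Pluripotency genes were divided, with Nanog at -3.20 ± 0.27 and Tdgf1, under the background on days 3 and 7, at 2.86 ± 0.38. On day 3 Nanog was at the background, at 5.27 and 5.38. The most negative were Necab1 (-6.78 ± 0.22), Tfap2d (-6.63 ± 0.17), Rgs6 (-5.77 ± 0.13), Vstm2a (-5.28 ± 0.20) and Sv2c (-5.11 ± 0.29), a synaptic vesicle gene, with Tfap2d under the background on day 3 (4.17 and 4.04).

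The change from day 7 to day 11 also enters the next comparison, with its sign turned. From day 11 to day 15 the change differed from that of days 7 to 11 for 818 genes (4.04%), of which 447 (2.21%) were more positive and 371 (1.83%) more negative. In the junction list 12 of 30 were more negative and 1 more positive, with a median further difference of 0.68 from day 11 to day 15. Simple keratins had 4 of 6 more positive, Krt7 by 2.82 ± 0.28. Cornified envelope genes had 10 of 28 more positive, with Sprr1b at 4.61 ± 0.30, Sprr1a at 4.58 ± 0.26 and Crct1 at 4.47 ± 0.24. Their means on days 7, 11 and 15 were 9.60, 6.66 and 8.34 for Sprr1b, 10.46, 8.54 and 11.20 for Sprr1a and 9.37, 7.08 and 9.27 for Crct1. Day 11 was the low point of the 3 days for each, but a large positive value of this difference by itself means a low day 11. The list median from day 11 to day 15 was 0.10. Lce1a1 and Ivl stayed under the background, with means of 4.289 and 5.041 on day 11 and 4.285 and 5.027 on day 15.

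Some genes crossed the background in this interval. At or under 5.32 on every array of days 0 to 7 and above it on both arrays of day 11 were 65 genes, of which 36 were called higher. They included Clec2f, Tdgf1, Ocln, Clec2i, Capsl (at least 2.41), the lymphoid membrane gene Lrmp (at least 2.08), Fbxo15, Grhl2 and Tdrd12. The means of 52 of the 65 were above background on day 15, and those of 37 in iPSC. By another rule, 108 genes were above background on both arrays of day 7 and at or under it on all arrays of days 11 and 15. Of these, 32 were called lower, among them Cbln2, the protease inhibitor gene Spink12, Lrrn3, Lce1a1, the fatty acid receptor gene Cd36 and Erbb4. The counts of 65 and 108 come from unlike rules and are not comparable. Some genes barely crossed the line, as Ano7 (0.20) and Stk32c (-0.08) did.

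Comparisons that share no array with day 11 and day 7 placed these genes in the wider course. Of the 370 genes higher on day 11, 167 were lower in iPSC than on day 15, against 5.48% of all genes. This is 45.1% of the 370 and 15.1% of the 1108 genes lower there. Another 56 (15.1% of the 370) were higher, against 5.52% of all genes. These shares were not matched for level. The 370 genes had a median level of 8.50 on day 15, against 6.73 for all genes. Of all 20233 genes, 6006 had means under the background on days 7 and 11, and genes at that level can hardly be called lower. Ly6g6c was at a mean of 6.32 in iPSC, against 11.51 on day 15, and Mal2 was at 4.40 in iPSC, under the background. Of the 248 genes lower on day 11, 60 were higher in iPSC than on day 15 (24.2% of the 248 and 5.38% of the 1116 higher there) and 36 were lower (14.5%). Among the 60 were Lox, Postn, Tnc, Igfbp7 and Cnn1, with Lox at a mean of 12.02 in iPSC and 6.85 on day 15. Whether the iPSC arrays included feeder cells is not stated, and Col1a1 stood at 11.53 in iPSC, against 7.96 on day 15. Of the 370, 25 were higher and 57 lower on day 1 than on day 0 (6.76% and 15.4%), against 7.62% and 6.54% of all genes, and of the 248, 44 were higher and 34 lower (17.7% and 13.7%).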

How the data were processed

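RNA was measured on 18 Affymetrix arrays, 2 in each of 9 groups. The authors deposited log2 expression values made with RMA, which corrects background, quantile normalizes arrays and summarises probes, per the submitters' processing notes. The version of RMA was not given in the sources used here, nor was the chip definition or the array build. Quantile normalization hides a change shared by most genes. Of 29643 probe sets, 27260 matched 1 symbol in a RefSeq gene table (GRCm38.p6, names only) and 2383 none. The table gave 20233 genes, each read by its probe set with the highest mean. Genes were fitted with limma 3.58.1 (R 4.3.3) on 9 group means over all 18 arrays (9 residual degrees of freedom), and the number of arrays limits the precision (median SE of a log2 difference 0.098). The fit was tested on simulated data. Members and the 40 gene lists were chosen with earlier results of these data known. Named genes were the largest changes per comparison and list, a panel of genes, and others marked as chosen after their values were seen; a few genes that this rule names are not reported here. The alternatives were other scalings, probe set means, a background filter, variance settings, a replicate block, no fold limit, other background percentiles, only the arrays compared, and leaving out day 18 or 1 array.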

Additional observations from a re-analysis of the deposited data

How the results depend on the processing

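None of the 618 calls reversed in any alternative run, which gave, beside the rule without a fold limit, 328 to 413 genes higher and 222 to 275 lower on day 11. Leaving out 1 array of day 11 or day 7 gave 351 to 413 higher and 222 to 265 lower, 7 to 8 epithelial regulators, 11 to 12 early and middle and 7 to 9 late naive pluripotency genes higher, and 7 to 9 cornified envelope and 4 fibroblast genes lower. It left 20 junction and 6 ERK genes higher. Without 1 array of any day used, those of days 3 and 15 added after seeing the data, 1000 to 1055 genes changed differently than in days 3 to 7, and 740 to 815 differently in days 11 to 15. Without a minimum log2 difference, 2594 genes were higher and 2635 lower, and 3092 and 2480 genes had a different change. Then 17 cornified envelope genes and 10 fibroblast genes were lower, and 18 late naive genes and 14 ERK genes higher. With the background at the 99th percentile, 139 genes were switched on. Replicate numbers are shared by the days but mark no stated pair, and same-numbered arrays of day 11 and day 7 had correlated deviations of -0.17. With the replicate number as a block 370 and 248 genes were called, and 370 and 248 with day 11's numbers crossed, a setting chosen after seeing the data. Of 247 genes picked by the naming rule 138 were called, of which 11 lost the call when 1 array was left out and 0 reversed. Of the called genes named outside that rule, Trim71, Egfr, Nqo1, Mir196a-1, Hoxc9 and Hoxb9 lost it likewise. The number of arrays, 2 a day, limits what small differences can be shown.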

Other observations

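Further genes called on day 11 against day 7 were picked after their values were seen and stand for no group. The adaptor gene Ap1m2, of epithelial sorting, was at 8.58 and 8.72 on day 11 and 5.73 and 5.86 on day 7 and Camsap3 and the polarity gene Llgl2 rose by 1.96 ± 0.15 and 1.30 ± 0.14. The imprint-protecting zinc finger gene Zfp57 was at 10.40 and 10.43 on day 11, against 8.14 and 8.13 on day 7, and the germline gene Morc1 rose by 2.19 ± 0.14 in limma. Txnip, which restrains glucose uptake, rose by 2.12 ± 0.11 and the mitochondrial carrier gene Ucp2 by 2.20 ± 0.09.

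The oxidative stress genes Hmox1 and Nqo1 fell by 1.23 ± 0.08 and 1.04 ± 0.08, the call of Nqo1 being lost without array 1 of day 11 (-0.99), and the growth factor gene Igf1 fell by 1.67 ± 0.18. Probe sets without a symbol numbered 2383, and these were counted apart from the genes.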
